A study of Homo sapiens with 22 samples.

Results

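AM-38 and A-172 are established human glioblastoma cell lines, and the comparison described here sets AM-38 against A-172 alone. Each line had 2 RNA-seq libraries and neither was treated. The 4 libraries were picked by the line named in their labels, from 22 libraries of 11 lines. AM-38 was kept in EMEM with 20% fetal bovine serum and A-172 in DMEM with 10%, so medium, serum and line cannot be told apart. All 5383 genes of the deposited table that holds both lines were read. Of these, 4399 had at least 10 reads in both libraries of at least 1 of the 2 lines and were tested, and 984 did not.

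Glioblastoma is a malignant glial tumour of the brain. Lines grown from it in serum commonly keep growth factor receptor and mesenchymal genes while they lose many glial ones, and each line carries the genome of its own tumour. Genes of secreted and adhesion proteins are among those described below. Interleukin 1 and its relatives act through the transcription factor NF-kB to switch on chemokines, the urokinase and collagenase proteases cut the matrix around a cell, and laminins, collagens and desmosomes hold cells to that matrix and to each other.

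Total reads were 21213215 and 19921360 in the AM-38 libraries and 19521242 and 20165852 in the A-172 libraries, and the listed genes held 21.8% to 22.0% of them. Levels below are in CPM, the reads of a gene scaled to that total, shown either as both library values or as their mean ± SD (n = 2). With a count of 0, up to 3 reads remain possible, or 0.141 to 0.154 CPM in one library, 0.0729 CPM over both AM-38 libraries and 0.0756 CPM over both A-172 libraries. These floors cover counting error only. Levels in the 2 libraries of a line lay within 1.5-fold of each other for 92.2% of tested genes in AM-38 and 89% in A-172. For these shares a prior count of 2 was added to the reads, which draws the values of low genes together. The labels do not tell whether the pair of libraries came from 2 cultures, so the p-values cover only their spread, possibly a technical one.

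A gene was called higher or lower in AM-38 at a Benjamini-Hochberg adjusted p under 0.05 in the edgeR quasi-likelihood test and a log2 fold change of at least 1 in size. Of 4399 tested genes, 2301 (52.3%) were called, 1182 of them higher in AM-38 (26.9%) and 1119 lower (25.4%). Over all tested genes the log2 difference had a median of -0.06. The libraries of the lines did not overlap for 91.1% of tested genes and for 2299 of the 2301 called. The differences were often large. At a log2 size of at least 5, 256 genes were higher and 132 lower, and at a size of at least 10, 21 were higher and 4 lower, with genes at 0 reads in a line counted at their bound against 3 reads. How the listed genes were chosen is not stated. Both lines lay 2-fold or more on the same side of SNU-466, the other line of the table, in 78.2% of the listed genes, and SNU-466 lay between AM-38 and A-172 in 38 (1.65%) of the called genes, so the shares describe the listed genes and not the transcriptome.

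**Figure D1:**
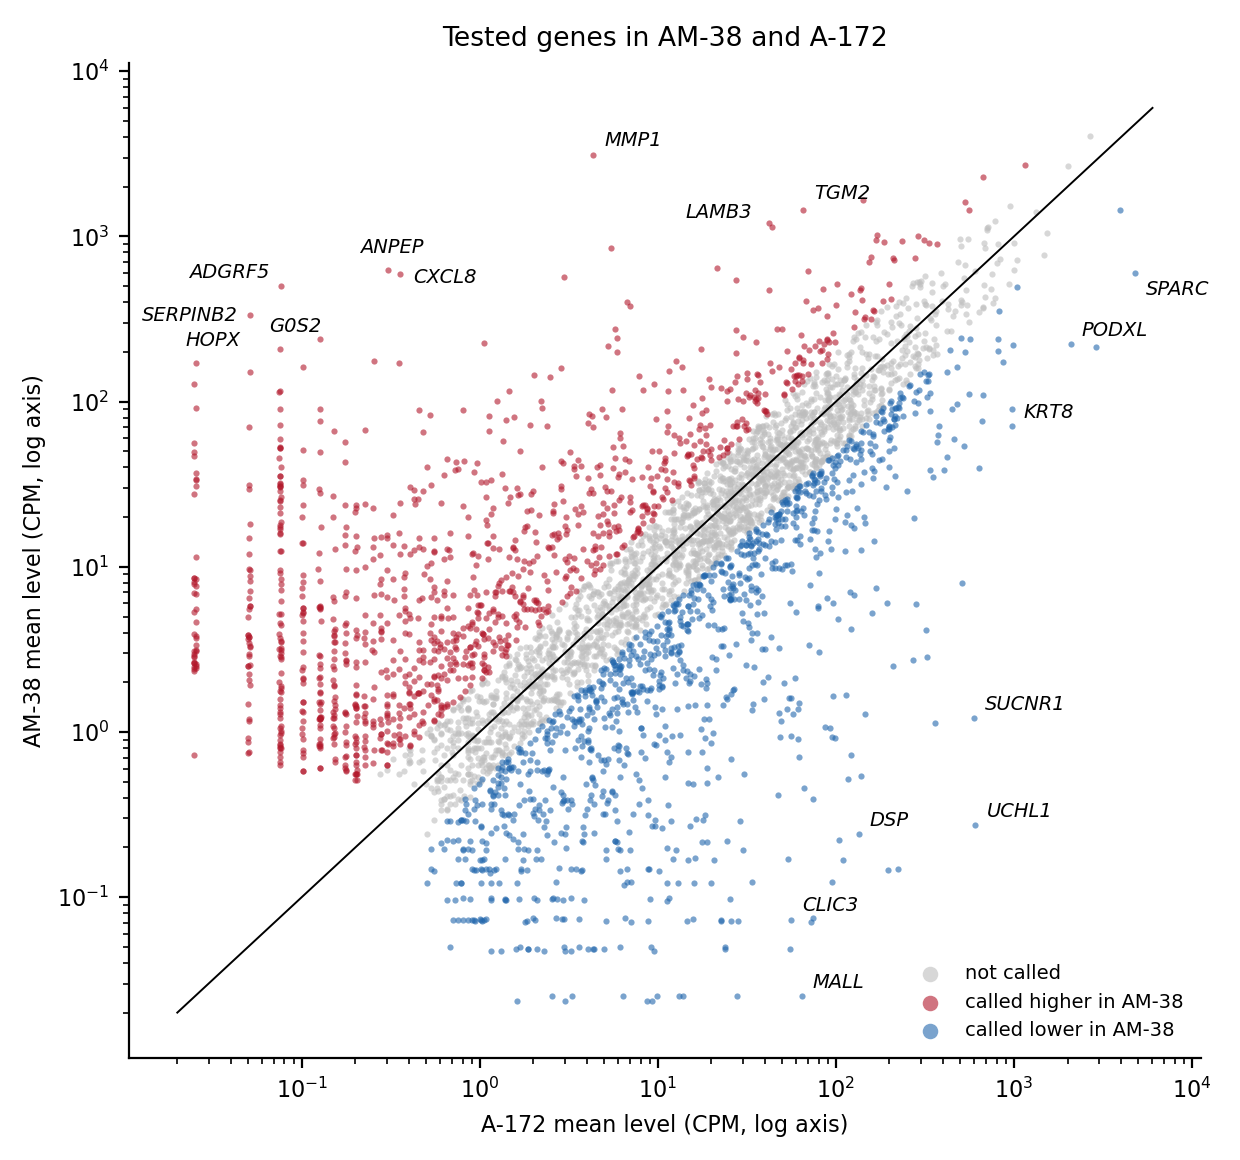
Mean level of each tested gene in A-172 (horizontal axis) and in AM-38 (vertical axis), in CPM on log axes, with a line at 0 reads drawn at the floor of 3 reads over its 2 libraries; red points were called higher in AM-38 (1182), blue points lower (1119) and grey points were not called (2098). HOPX, MMP1 and CXCL8 at the upper left and UCHL1 and SUCNR1 at the lower right lie far from the diagonal of equal levels. SPARC, at 603 CPM in AM-38 and 4768 CPM in A-172, lies below the diagonal at the upper right.

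The glioblastoma label was read against marker genes, as far as the table lists them. Of 16 astrocyte and oligodendrocyte markers 9 were listed. Their summed level was 376 and 373 CPM in AM-38 and 275 and 272 CPM in A-172. Most of it came from SOX9 (264 ± 2.99 CPM in AM-38 and 187 ± 2.87 CPM in A-172) and GLUL (84.6 ± 3.22 and 85.2 ± 0.324 CPM), which were not called. GFAP, the intermediate filament of astrocytes, stood at 0.314 ± 0.0892 CPM in AM-38 and 1.36 ± 0.04 CPM in A-172 and was called lower, and OLIG1 had 0 reads in all 4 libraries. ALDH1L1 (20.0 ± 1.41 and 0.15 ± 0.139 CPM), MBP (4.08 ± 0.163 and 0.278 ± 0.042 CPM) and S100B (1.47 ± 0.409 and 0.0496 ± 0.0701 CPM) were called higher. MOG and SOX10 were too low to be tested. No melanocyte marker was listed, the 3 listed immune markers summed to 1.46 to 6.1 CPM, and the 3 listed endothelial markers to 5.82 to 12.7 CPM. In a bulk culture, fewer cells of a type and less RNA per cell cannot be told apart.

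Inflammatory cytokine genes were mostly higher in AM-38. Of 19 tested cytokine and chemokine genes, 11 were higher, 6 lower and 2 not called, with a median log2 difference of 2.0, beside 26.9% higher, 25.4% lower and a median of -0.06 over all tested genes. CXCL8, the neutrophil chemokine also called interleukin 8 (chromosome 4, 73740506 to 73743716, GRCh38), was at 587 and 592 CPM in the AM-38 libraries and at 0.41 and 0.298 CPM in the A-172 libraries. Both AM-38 libraries thus lay far above both A-172 libraries, a log2 difference of 10.68 (SE 0.10, adjusted p = 3.64e-26). IL24, which belongs with interleukin 10, was at 152 ± 3.08 CPM in AM-38 with 2 reads in A-172, a ratio of 2969 (95% counting interval 835 to 24933). CXCL1 was at 33.8 and 37.0 CPM and CXCL6 at 32.1 and 28.5 CPM, and both had 0 reads in A-172, which makes them at least 469-fold and 401-fold higher in AM-38. These are further neutrophil chemokines of the same gene cluster. The other 7 higher genes were CXCL2, CXCL3, IL1A, IL1B, CSF2, EBI3 and TNFSF15 (not called at 0.91 on the log2 scale without the second A-172 library), which are outside the rule that fixed the named genes and were named after their values were seen. IL1A, an upstream ligand of the interleukin 1 receptor, was at 30.5 ± 0.632 CPM in AM-38 and 0.404 ± 0.0805 CPM in A-172.

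The group was not uniform. TNFSF4, the OX40 ligand, was at 1.27 and 1.31 CPM in AM-38 and at 143 and 146 CPM in A-172 (log2 difference -6.81, SE 0.11, adjusted p = 5.91e-23). IL18, a further interleukin 1 relative, was at 0.606 ± 0.0762 CPM against 18.9 ± 0.778 CPM, and IL32 at 3.21 ± 0.854 against 48.1 ± 1.6 CPM. IL11 was at 2.25 ± 0.512 against 15.1 ± 0.561 CPM. Neither library of AM-38 reached either library of A-172 for these 4 genes. LIF (127 ± 2.98 and 99.0 ± 0.992 CPM) and IL15 (13.6 ± 0.944 and 11.2 ± 0.363 CPM) were not called.

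Receptors and feedback genes of the same pathways were more often lower than higher. Of 20 tested cytokine receptor and NF-kB feedback genes, 4 were higher, 8 lower and 8 not called, with a median of -0.79. SOD2, a mitochondrial superoxide dismutase and a classic NF-kB target, was at 62.2 and 63.9 CPM in AM-38 and at 371 and 375 CPM in A-172 (log2 difference -2.56, SE 0.05). TNFAIP2 was at 5.42 and 6.48 CPM against 284 and 281 CPM, and BIRC3, an inhibitor of apoptosis that NF-kB also induces, at 5.89 ± 0.735 against 32.8 ± 6.66 CPM. TNFRSF11B, the decoy receptor osteoprotegerin, was at 1.05 ± 0.356 against 92.7 ± 3.29 CPM. These were low where the chemokines were high. TNFAIP3, the A20 inhibitor of NF-kB signalling, went the other way, at 22.5 ± 0.789 CPM in AM-38 and 8.7 ± 0.449 CPM in A-172 (log2 difference 1.37, SE 0.11), as did the decoy chemokine receptor ACKR3 (8.14 ± 0.154 and 0.101 ± 0.00232 CPM), the interleukin 13 receptor IL13RA2 (63.1 ± 3.7 and 18.6 ± 0.749 CPM) and IL31RA (21.3 ± 0.0542 and 5.67 ± 0.048 CPM). IL7R and IL13RA1 were not called. Adjusted p-values of the called receptor and feedback genes ran from 7.4e-24 to 9.44e-06 (edgeR).

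**Figure D2:**
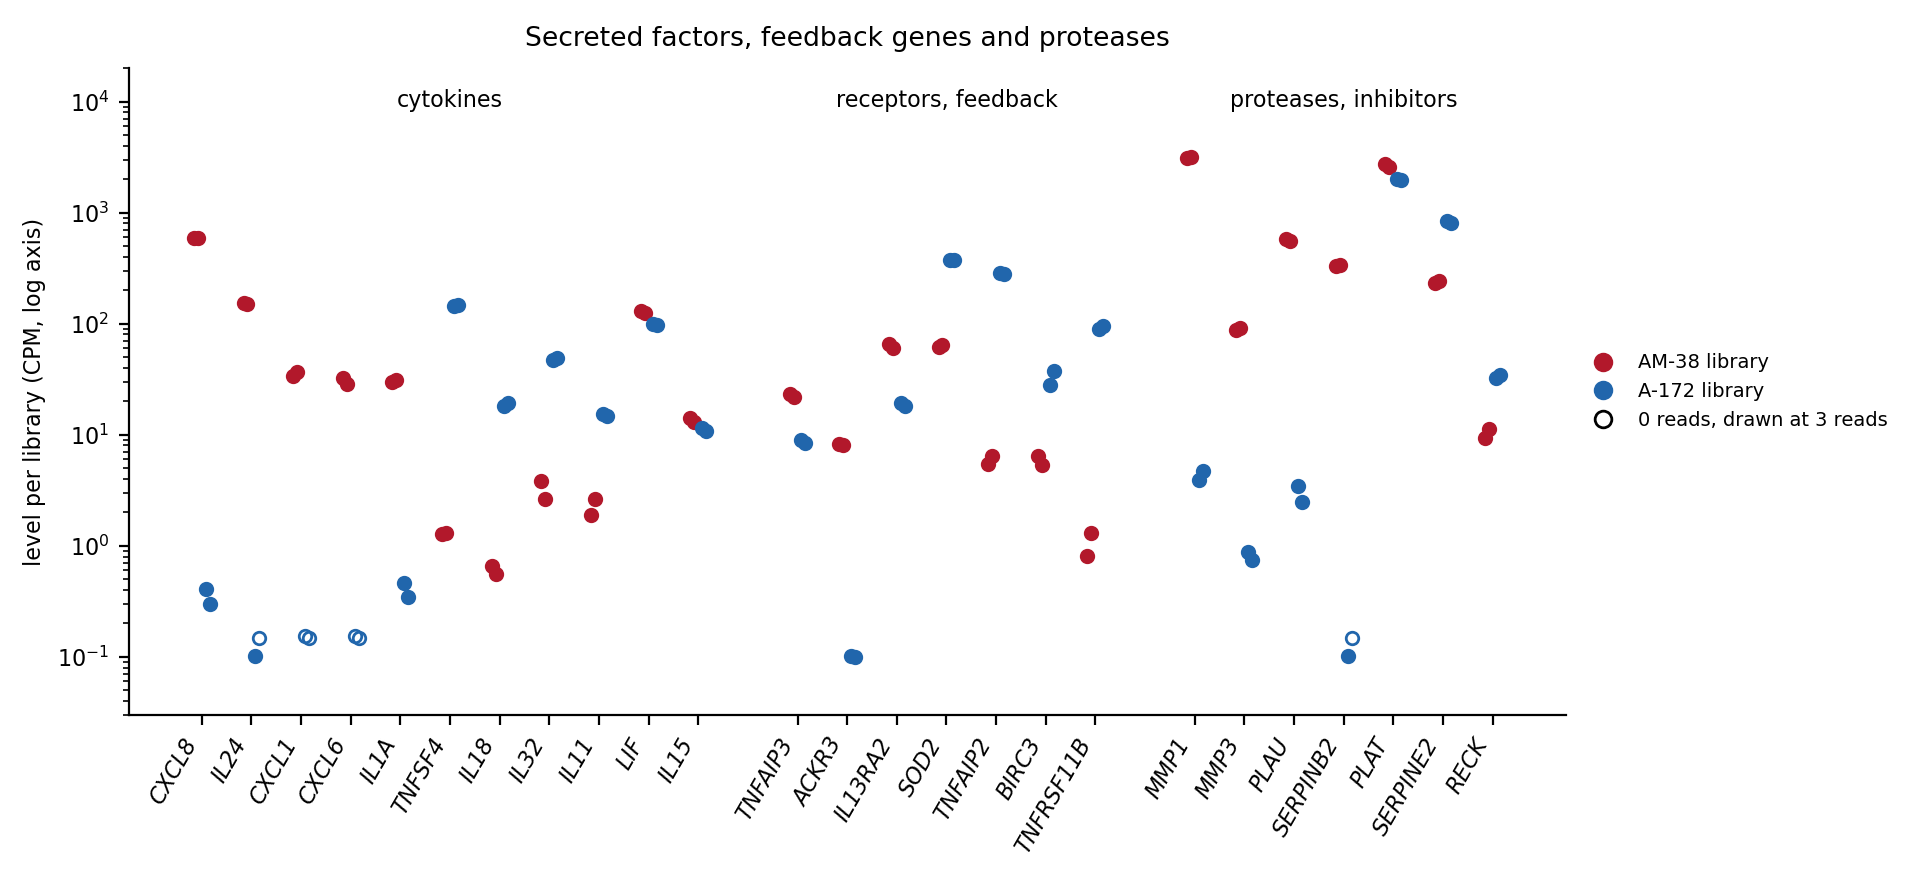
Level in each library, in CPM on a log axis, of the named cytokine, feedback and protease genes; red points are the 2 AM-38 libraries, blue points the 2 A-172 libraries, and open points are libraries at 0 reads drawn at their floor of 3 reads. The chemokines, IL24, MMP1, MMP3, PLAU and SERPINB2 lie high in AM-38, whereas TNFSF4, IL18, IL32, SOD2, TNFAIP2, BIRC3 and TNFRSF11B lie high in A-172.

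The neutrophil chemokines lie side by side on chromosome 4, where CXCL8, CXCL6, CXCL1, CXCL3, CXCL2 and then EREG, LINC02562 and FRAS1 were 8 neighbouring tested genes that were all called higher (73740506 to 78544269). The letters GGAATTTCC, a site form that NF-kB binds, were searched on both strands of RefSeq promoters of GRCh38.p14, which run from 250 bases before to 50 bases after each gene start. The search was chosen after the values were seen. These letters were in 0.56% of the promoters of 27305 genes, in 1.13% of those of 708 higher genes, in 0.652% of 767 lower genes and in 0.601% of 1497 genes not called. All 5 CXCL genes of the cluster held them, 77 to 91 bases before the start. These 5 were among only 8 higher genes with the letters, so the share of higher genes rests largely on this cluster. The letters were in the promoters of these 5 of the 11 higher cytokine genes and of 0 of the 4 lower ones with a promoter in the table. These 5 are related genes of the same cluster and not separate observations. In the cytokine receptor and NF-kB feedback list the letters were in 1 of 7 lower genes with a promoter and in 0 of 1 higher. The 150 bases before each start are shown because the members of this cluster were high together. They are written 5′ to 3′ on the strand of the gene with GGAATTTCC in capitals, and in CXCL8 also TGACTCA, a form of the site of AP-1, the FOS and JUN factor.
CXCL8 (chr4:73740419-73740568, plus strand): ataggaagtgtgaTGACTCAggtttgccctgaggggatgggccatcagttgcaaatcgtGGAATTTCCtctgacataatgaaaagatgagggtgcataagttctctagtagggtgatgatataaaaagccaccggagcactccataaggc
CXCL6 (chr4:73836528-73836677, plus strand): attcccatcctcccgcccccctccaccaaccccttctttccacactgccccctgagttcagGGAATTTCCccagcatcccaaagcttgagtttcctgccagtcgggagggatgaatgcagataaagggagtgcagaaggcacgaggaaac
CXCL1 (chr4:73869243-73869392, plus strand): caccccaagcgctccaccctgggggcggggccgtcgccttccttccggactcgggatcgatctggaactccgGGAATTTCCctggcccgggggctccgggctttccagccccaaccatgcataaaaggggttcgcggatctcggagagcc
CXCL3 (chr4:74038690-74038839, minus strand): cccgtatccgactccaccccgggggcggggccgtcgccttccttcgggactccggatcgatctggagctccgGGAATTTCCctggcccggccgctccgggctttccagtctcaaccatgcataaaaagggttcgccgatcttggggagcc
CXCL2 (chr4:74099196-74099345, minus strand): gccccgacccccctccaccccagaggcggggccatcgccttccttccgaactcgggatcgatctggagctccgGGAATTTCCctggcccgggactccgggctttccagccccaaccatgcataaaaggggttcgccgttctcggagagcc
A match is a description of the letters, and binding of NF-kB was not measured. CXCL1, CXCL2 and CXCL3 are near copies of one another, so that reads can be shared among them.

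Extracellular proteases and their inhibitors included some of the largest rises. Of 31 tested members, 11 were higher, 8 lower and 12 not called, with a median log2 difference of 0.34. The shares were 35.5% higher and 25.8% lower, beside 26.9% and 25.4% of all tested genes. MMP1, the interstitial collagenase (chromosome 11, 102789920 to 102798160), was at 3098 and 3166 CPM in AM-38 and at 3.94 and 4.71 CPM in A-172, a log2 difference of 9.5 (SE 0.07, adjusted p = 1e-28). MMP3, stromelysin 1, which can activate collagenase, was at 87.2 and 91.8 CPM against 0.871 and 0.744 CPM. PLAU, the urokinase that cuts plasminogen (chromosome 10, 73909177 to 73917497), was at 575 and 560.0 CPM against 3.43 and 2.48 CPM (log2 difference 7.59, SE 0.08). SERPINB2, an inhibitor of urokinase (chromosome 18, 63871692 to 63903890), was at 334 and 335 CPM with 2 reads in A-172, a ratio of 6528 (95% counting interval 1837 to 54801). The protease and an inhibitor of it were thus both high in AM-38. The tissue-type activator PLAT (2659 ± 118 and 2002 ± 40.7 CPM) was not called. PLAUR, the urokinase receptor, which is outside the naming rule, was at 107 ± 6.19 and 91.5 ± 4.1 CPM and was not called. Lower genes included SERPINE2, protease nexin 1, at 239 ± 5.31 CPM in AM-38 and 818 ± 21.6 CPM in A-172 (log2 difference -1.78, SE 0.04), the membrane-anchored inhibitor RECK (10.3 ± 1.28 and 33.6 ± 1.3 CPM), MMP15 (2.37 ± 0.445 and 9.49 ± 1.29 CPM) and ADAM23 (5.26 ± 0.233 and 29.8 ± 1.01 CPM).

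Beyond these groups, the 15 largest rises and 15 largest falls at 10 CPM or more in the higher line had adjusted p-values from 3.64e-26 to 4.3e-15 (edgeR). A line at 0 reads was ranked at 3 reads and a line at 1 read at that read, so genes at 0 reads, such as FAM9A, rank lower than their levels alone would place them. HOPX, a homeodomain-only cofactor (chromosome 4, 56647988 to 56681899), had 3655 and 3409 reads in AM-38 with 1 read in A-172, a ratio of 6704 (95% counting interval 1223 to 269233). ADGRF5, an adhesion receptor, was at 488 and 509 CPM with 3 reads in A-172, a ratio of 6554 (interval 2254 to 31944). G0S2, an inhibitor of the main triglyceride lipase, was at 215 and 202 CPM with 0 reads in A-172, at least 2756-fold higher. ANPEP, aminopeptidase N of the cell surface, was at 642 and 618 CPM against 0.41 and 0.198 CPM (log2 difference 11.0, SE 0.11). TMPRSS15, the enteropeptidase gene, normally of the duodenum, was at 237 and 246 CPM against 0.102 and 0.149 CPM, and TEX19, a germline gene, at 168 and 156 CPM against 0.102 and 0.0992 CPM. APBB1IP, an adaptor of integrin activation, was at 91.4 ± 3.47 CPM with 1 read in A-172. The remaining rises of this kind were IL24, CXCL8, SERPINB2, FAM9B, TRHDE-AS1, LINC01029 and, uncertain because near-identical genes can share their reads, VCX3A and MT1E.

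UCHL1, the ubiquitin hydrolase abundant in neurons, was among the largest falls, at 0.0943 and 0.452 CPM in AM-38 and at 610.0 and 603 CPM in A-172 (log2 difference -11.11, SE 0.12, adjusted p = 1.76e-25). MALL, a membrane raft protein, had 1 read in AM-38 and stood at 66.7 and 62.1 CPM in A-172, a ratio of 2568 (95% counting interval 475 to 104679). CLIC3, an intracellular chloride channel protein, had 0 reads in AM-38 and was at 57.4 and 55.0 CPM in A-172, at least 771-fold lower in AM-38. CAVIN2, a coat protein of caveolae, was at 0.149 ± 0.144 against 223 ± 6.2 CPM, EEF1A2, the elongation factor form of neurons and muscle, at 0.146 ± 0.00648 against 196 ± 12.4 CPM, and SUCNR1, the succinate receptor, at 1.21 ± 0.29 against 594 ± 64.4 CPM. NOTCH3, a Notch receptor, was at 0.236 and 0.1 CPM against 109 and 110.0 CPM (log2 difference -9.28, SE 0.16). IGF2BP1, an RNA-binding protein of the fetus, had 3 reads in AM-38 against 72.1 ± 0.196 CPM. GYG2, DCLK1, TMEM37, PRAME, PKP2, DSP and ENSG00000283462 completed these falls.

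By difference in level rather than ratio, MMP1 led the rises and SPARC the falls among called genes. SPARC, a matrix-binding glycoprotein, was at 604 and 603 CPM in AM-38 and at 4832 and 4704 CPM in A-172 (log2 difference -2.98, SE 0.04). DPYSL3, a regulator of growth cones, was at 214 ± 0.98 against 2879.8 ± 52.8 CPM, PODXL, a sialomucin, at 222 ± 5.3 against 2083 ± 29.4 CPM, and FSTL1 at 89.8 ± 1.48 against 977 ± 2.63 CPM. DCBLD2 was at 1442 ± 28.2 against 3919 ± 55.4 CPM and the noncoding RNA LINC03061 at 202 ± 1.95 against 818 ± 6.85 CPM. The rises held a pair of membrane repair genes of the ferlin family. DYSF, dysferlin, was at 1174 and 1114 CPM in AM-38 and at 45.0 and 42.2 CPM in A-172 (log2 difference 4.71, SE 0.05), and MYOF, myoferlin, at 2722 ± 106 against 1152 ± 1.41 CPM. MME, the membrane peptidase neprilysin, was at 1025 ± 6.89 against 171 ± 12.1 CPM, CD59, an inhibitor of complement, at 1451 ± 1.14 against 562 ± 0.825 CPM, and AKAP12, a scaffold protein, at 1621 ± 71.5 against 531 ± 5.94 CPM. NPM1, nucleophosmin, was at 2302 ± 79.5 against 670.0 ± 5.56 CPM, and KRT81 at 1665 ± 18.4 against 142 ± 1.66 CPM. Both are uncertain, since NPM1 has pseudogenes and KRT81 has near-identical hair keratin genes. TGM2, LAMB3, KRT8, KRT18, COL5A1 and UCHL1 are the others of these 20 genes, whose adjusted p-values ran from 1e-28 to 5.86e-18.

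Structural matrix genes were more often lower than higher in AM-38. Of 42 tested genes, 12 were higher, 20 lower and 10 not called, with a median log2 difference of -0.86. The shares were 28.6% and 47.6%, beside 26.9% and 25.4% of all tested genes. COL1A2, a chain of collagen I, was at 0.801 and 0.653 CPM in AM-38 and at 125 and 120.0 CPM in A-172 (log2 difference -7.38, SE 0.13). THBS2, thrombospondin 2, was at 2.69 and 3.01 CPM against 324 and 327 CPM, COL7A1, the anchoring fibril collagen, at 3.49 and 4.82 CPM against 309 and 330.0 CPM, and COL5A1 at 174 ± 1.29 against 872 ± 13.3 CPM. The opposite was seen for LAMB3, the laminin beta 3 chain of epithelial basement membranes, at 1266 and 1139 CPM in AM-38 and 43.8 and 39.9 CPM in A-172 (log2 difference 4.84, SE 0.06). TGFBI, a collagen-binding adhesion protein, was at 868 and 834 CPM against 5.99 and 4.91 CPM, and BGN, the proteoglycan biglycan, at 27.9 ± 2.54 against 0.126 ± 0.0327 CPM. LAMC1 and LAMB1 were not called. For each of the 7 genes given values here the libraries of the lines did not overlap.

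Collagen IV, the network collagen of basement membranes, is built from alternative chains whose genes lie in head-to-head pairs, and the chains differed in direction. COL4A1 was at 11.7 and 13.6 CPM in AM-38 and 142 and 134 CPM in A-172 (log2 difference -3.44), its partner COL4A2 at 19.8 ± 0.158 and 275 ± 8.41 CPM (-3.79), and COL4A4 at 0.367 ± 0.119 and 7.83 ± 0.854 CPM (-4.4). The COL4A5 and COL4A6 pair was higher, with COL4A6 at 66.8 ± 1.46 against 1.13 ± 0.295 CPM (5.87) and COL4A5 at 69.4 ± 1.6 against 18.5 ± 0.889 CPM (1.9). COL4A3, the partner of COL4A4, had too few reads to be tested. NID1, nidogen, which links collagen IV to laminin, was at 6.32 and 5.82 CPM against 195 and 192 CPM (-4.99, SE 0.08), and HSPG2, the proteoglycan perlecan, at 7.02 ± 0.273 against 120.0 ± 3.36 CPM (-4.09). COL4A1, COL4A2, COL4A4, COL4A5 and HSPG2 were chosen after their values were seen.

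Enzymes that shape and crosslink collagen included genes of both directions. Of 12 tested, 2 were higher, 3 lower and 7 not called. These shares (16.7% and 25.0%) were not above the 26.9% and 25.4% of all tested genes. TGM2, tissue transglutaminase, was at 1484 and 1411 CPM in AM-38 and 64.4 and 65.9 CPM in A-172 (log2 difference 4.47, SE 0.05), and LOX, lysyl oxidase, at 261 ± 3.72 against 95.8 ± 0.704 CPM. LOXL1, a paralog of LOX, was at 14.3 ± 0.364 against 163 ± 6.27 CPM, PLOD3, a collagen lysine hydroxylase, at 38.1 ± 1.3 against 163 ± 8.3 CPM and LOXL4 at 17.9 ± 0.372 against 39.1 ± 0.756 CPM. LOXL2 and the collagen chaperone SERPINH1 were not called. LOX and its paralogs thus did not share a direction.

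Integrins, the receptors for this matrix, had 3 of 10 genes higher and 3 lower, near the 26.9% and 25.4% of all tested genes. ITGB2, the beta 2 chain known from leukocytes, was at 44.2 and 43.0 CPM in AM-38 and at 1.08 and 0.545 CPM in A-172 (log2 difference 5.75, SE 0.17). The collagen receptor chains ITGA1 (20.9 ± 1.37 and 1.16 ± 0.259 CPM) and ITGA10 (34.9 ± 0.795 and 5.95 ± 0.493 CPM) were also higher. The defining leukocyte gene PTPRC was at 0.196 ± 0.0775 CPM in AM-38 and 1.78 ± 0.351 CPM in A-172 and was called lower. ITGA7, a laminin receptor chain, was at 1.63 ± 0.038 against 24.0 ± 2.48 CPM, ITGAV at 115 ± 3.8 against 280.0 ± 33.6 CPM and ITGA6 at 243 ± 5.11 against 507 ± 10.5 CPM. ITGA6 was not called with TMM or RLE scaling (log2 difference -0.98). ITGA3, with 4080.3 ± 280.0 and 2679.5 ± 90.1 CPM, and ITGB5 were not called.

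**Figure D3:**
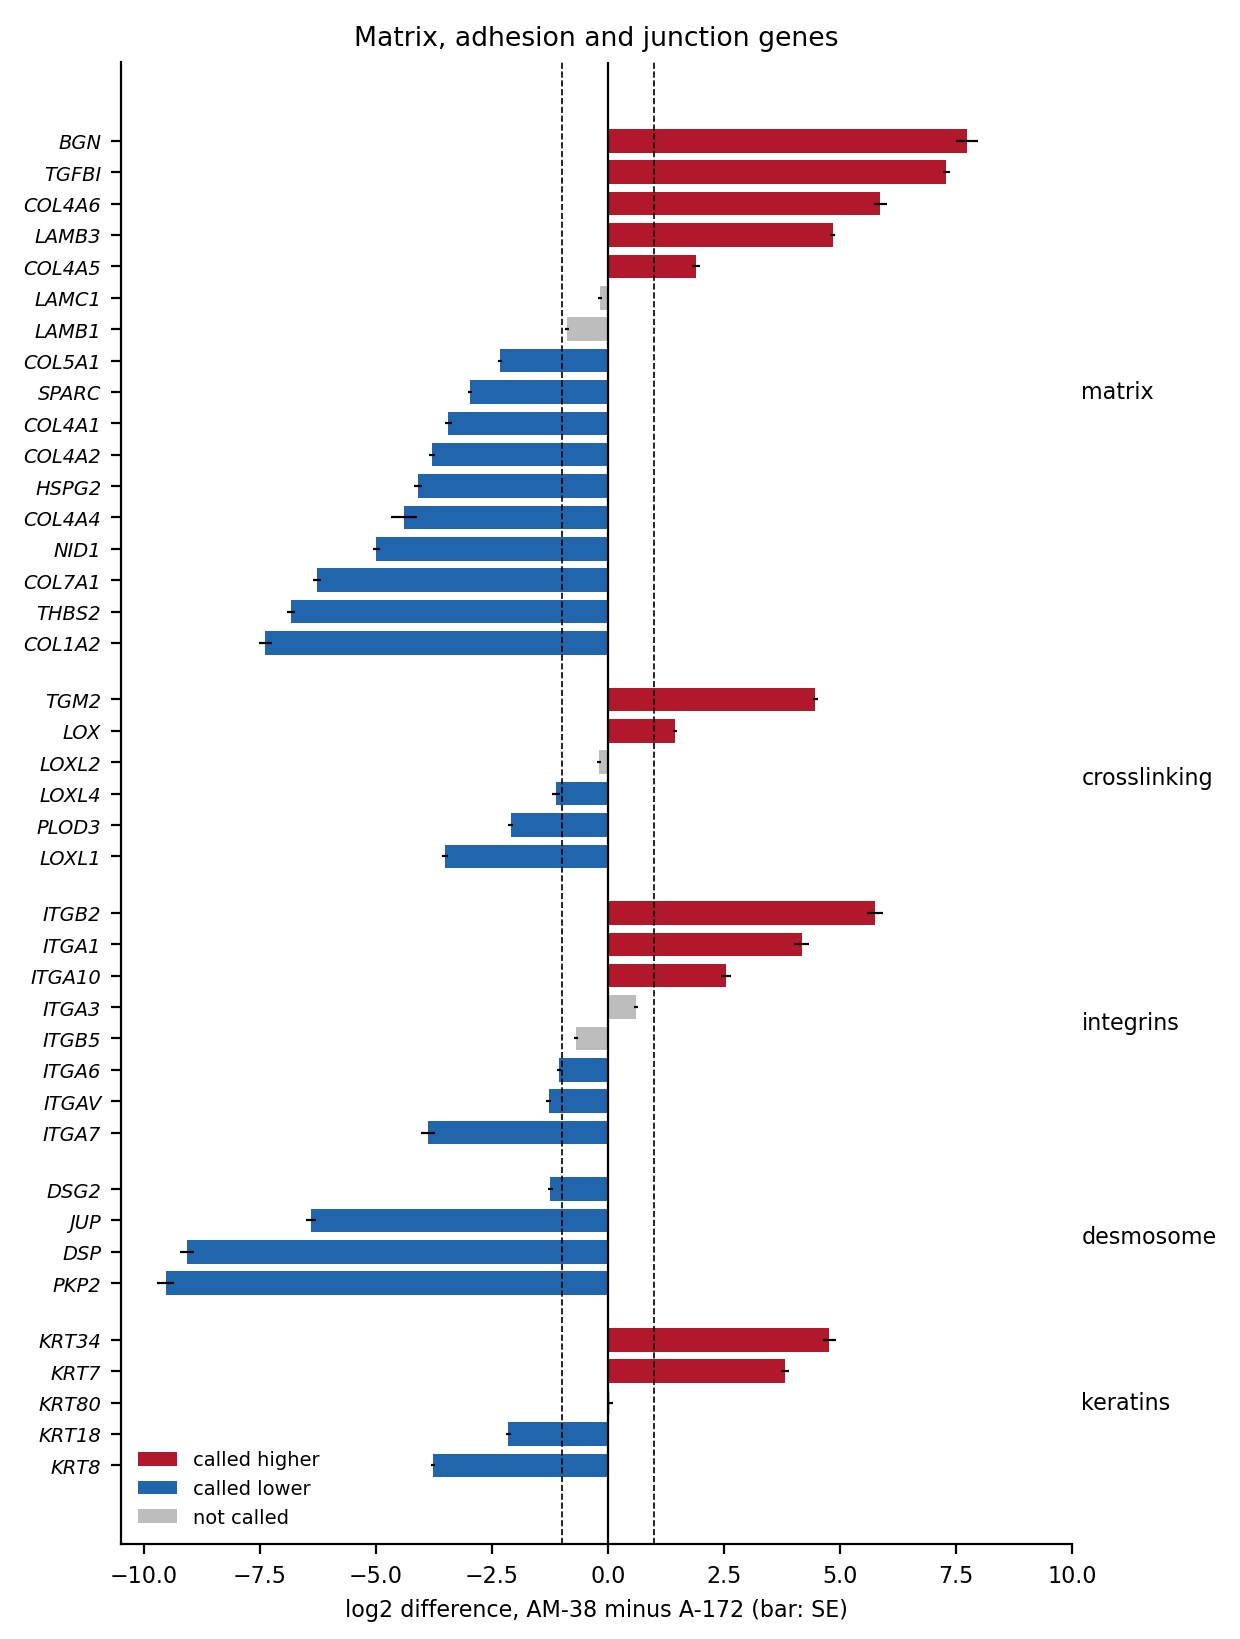
Log2 difference between AM-38 and A-172 (bars, SE) of the named matrix, crosslinking, integrin, desmosome and keratin genes, with the broken lines at the size of 1 needed for a call; a bar to the right is higher in AM-38. Among matrix genes LAMB3, TGFBI, BGN and COL4A6 point right and COL1A2, THBS2, COL7A1 and NID1 left, and the desmosome genes DSP, PKP2 and JUP point left while KRT7 points right.

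Epithelial genes were mostly lower in AM-38. Of 11 tested, 8 were lower, 2 higher and 1 not called. DSP, desmoplakin, which ties desmosomes to keratin, was at 0.33 and 0.151 CPM in AM-38 and at 136 and 132 CPM in A-172 (log2 difference -9.07, SE 0.15). PKP2, plakophilin 2, was at 0.0471 and 0.201 CPM against 93.6 and 95.9 CPM, and JUP, plakoglobin, at 1.89 and 3.11 CPM against 214 and 205 CPM. DSG2, a desmosomal cadherin, was at 74.2 ± 1.47 against 176 ± 10.3 CPM. The keratin pair of simple epithelia fell as well, with KRT8 at 73.9 and 68.5 CPM against 990.0 and 958 CPM (-3.77, SE 0.05) and KRT18 at 230.0 and 212 CPM against 1007 and 960.0 CPM (-2.15, SE 0.05); KRT8 and KRT18 have pseudogenes that can share reads. KRT7, the partner found in ducts and mesothelium, was opposite, at 122 and 112 CPM against 8.96 and 7.59 CPM (3.82, SE 0.09). KRT80 was not called. Over all keratins 5 of 10 were higher and 3 lower, the higher ones including the hair keratins KRT34 (36.6 ± 1.59 and 1.34 ± 0.00496 CPM) and, as uncertain, KRT81 and KRT86. Of the 8 defining epithelial markers, 4 were listed (KRT8, KRT18, ESRP1, CLDN4), and they summed to 310.0 and 286 CPM in AM-38 and 2019 and 1936 CPM in A-172, with ESRP1 at about 0.1 CPM in both lines.

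Protocadherins were more often lower than higher, and cadherins more often higher by count but not by summed level. Of 11 cadherin genes 5 were higher and 2 lower, beside 26.9% and 25.4% of all tested genes. The summed level of the cadherin list was 660 CPM in AM-38 and 918 CPM in A-172. The lower genes were DSG2, given above, and N-cadherin, CDH2, at 240.0 ± 4.32 CPM in AM-38 and 563 ± 11.6 CPM in A-172 (log2 difference -1.23, SE 0.04). Among the higher ones, CDH4 was at 34.5 ± 2.01 against 15.9 ± 0.133 CPM and CDH5 at 5.96 ± 0.835 against 1.75 ± 0.788 CPM. Of 22 protocadherins, the relatives that mark neurons, 11 were lower and 4 higher. PCDH10 was at 4.82 ± 0.0763 against 103 ± 9.44 CPM, PCDHB3 at 1.17 ± 0.121 against 49.0 ± 1.73 CPM and PCDHGB7 at 5.66 ± 0.127 against 79.6 ± 3.18 CPM. Genes of the clusters share exons or resemble one another, so reads of single members are uncertain. Of 25 axon guidance genes 5 were higher and 8 lower (20.0% and 32.0%), near the 26.9% and 25.4% of all tested genes. DCC, a netrin receptor, was at 13.1 and 12.0 CPM in AM-38 with 3 reads in A-172, a ratio of 167 (95% counting interval 56.5 to 807), NTNG1, a netrin relative, was at 31.3 ± 0.257 CPM with 2 reads, and NRP1, the co-receptor of semaphorins and VEGF, was at 742 ± 5.37 against 278 ± 2.01 CPM. The semaphorin and netrin receptors PLXNA4, PLXNB1 and UNC5A and the ligand EFNA1 were lower.

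EGFR, AXL and MET, receptors often active in glioblastoma, differed by less than 2-fold. EGFR was at 454 and 470.0 CPM in AM-38 and 346 and 351 CPM in A-172, a log2 difference of 0.41 (SE 0.04), AXL at 849 ± 14.2 and 688 ± 24.2 CPM and MET at 421 ± 2.55 and 247 ± 0.338 CPM. They were not called for their size, although their adjusted p-values of 1.79e-08, 6.81e-07 and 4.92e-13 (edgeR) passed. Of 20 tested receptor tyrosine kinases, 5 were higher and 9 lower, with a median of -0.81. The shares were 25.0% and 45.0%, beside 26.9% and 25.4% of all tested genes. TEK, the angiopoietin receptor, had 1 read in AM-38 and was at 9.22 and 10.7 CPM in A-172, EPHB2 was at 1.41 and 1.56 CPM against 61.6 and 62.2 CPM (-5.38, SE 0.13), FGFR3 at 1.13 and 0.853 CPM against 18.8 and 22.2 CPM (-4.35, SE 0.19) and MST1R at 0.218 ± 0.0247 against 5.78 ± 0.525 CPM. IGF1R was higher, at 76.6 and 80.1 CPM against 30.4 and 29.2 CPM (1.39, SE 0.07). Without the first AM-38 library, 3 receptor tyrosine kinases were called higher.

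Their ligands changed in both directions. Of 18 growth factors, 7 were higher and 5 lower (38.9% and 27.8%), beside 26.9% and 25.4% of all tested genes. With TMM or RLE scaling 3 were lower. PDGFC was at 504 and 520.0 CPM in AM-38 and at 96.3 and 106 CPM in A-172 (log2 difference 2.34, SE 0.05), whereas PDGFD had 3 reads in AM-38 against 22.7 ± 0.807 CPM and PDGFB was at 11.3 ± 0.228 against 40.1 ± 3.34 CPM. PDGFA was not called (23.3 ± 0.787 and 21.9 ± 0.567 CPM). The PDGF family thus showed each of the 3 outcomes. TGFA, a ligand of EGFR, was at 26.6 ± 0.332 against 7.02 ± 1.3 CPM, GDNF at 5.66 ± 0.196 against 0.38 ± 0.187 CPM and midkine, MDK, at 30.7 ± 0.701 against 9.05 ± 2.13 CPM. VEGFC was lower, at 44.5 ± 2.63 against 90.9 ± 1.62 CPM, but fell short of the fold threshold (log2 difference -0.97) without the first AM-38 library and with TMM or RLE scaling (-0.95).

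Of 15 tested genes that ERK signalling induces, 4 were higher and 5 lower, with a median of 0.09. These shares (26.7% and 33.3%) were near the 26.9% and 25.4% of all tested genes. MYC was at 472 ± 7.87 CPM in AM-38 and at 42.3 ± 3.8 CPM in A-172 (log2 difference 3.48, SE 0.06), FOSL1, a subunit of AP-1, at 503 and 457 CPM against 86.5 and 82.8 CPM (2.5, SE 0.06) and DUSP5, a nuclear ERK phosphatase, at 180.0 and 173 CPM against 13.0 and 12.2 CPM (3.81, SE 0.07). DUSP6, the cytoplasmic ERK phosphatase, was at 48.1 ± 5.16 against 14.7 ± 1.19 CPM. Other genes of the same list were lower. IER3 was at 0.283 and 0.502 CPM against 75.5 and 72.3 CPM (-7.55, SE 0.16) and EGR1 at 17.7 and 18.0 CPM against 119 and 122 CPM (-2.75, SE 0.07). EPHA4 and KCNN4 were also lower, and DUSP4 and PHLDA1 were not called. Listed proliferation genes numbered 3, of which CDK6 (134 ± 6.89 and 320.0 ± 27.9 CPM in AM-38 and A-172) and CCND3 (10.7 and 10.0 CPM in AM-38, 56.7 and 49.2 CPM in A-172) were lower and CDT1 was not called.

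A match to TGANTCA, with N for any base, was searched on both strands of the same promoters, again after the values were seen. These letters are looser than the AP-1 form TGACTCA, since they also take in TGAATCA and TGATTCA. The forms were not counted apart, so the shares below are not shares of AP-1 sites. A match was in 9.37% of the promoters of all 27305 genes. The share was 16.8% of 708 genes higher in AM-38, 11.2% of 767 lower genes and 8.08% of 1497 genes not called. Among genes named for the largest ratios or differences, 6 of 19 higher ones with a promoter in the table held a match (CD59, CXCL8, LAMB3, NPM1, SERPINB2, TMPRSS15), and 1 of 16 lower ones did (DCLK1). The first match was TGACTCA in CXCL8 and LAMB3, TGATTCA in CD59, NPM1 and TMPRSS15, and TGAATCA in SERPINB2. A stretch around the match, in capitals, is shown for a secreted inhibitor, a laminin chain and the enteropeptidase gene, which differ in function but were all far higher in AM-38. The matches begin 102, 67 and 128 bases before the RefSeq start of SERPINB2, LAMB3 and TMPRSS15, and all 3 lie inside the genes as GENCODE 29 annotates them, which start further upstream.
SERPINB2 (chr18:63887573-63887639, plus strand): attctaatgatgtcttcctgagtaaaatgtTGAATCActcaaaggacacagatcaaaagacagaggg
LAMB3 (chr1:209651405-209651471, minus strand): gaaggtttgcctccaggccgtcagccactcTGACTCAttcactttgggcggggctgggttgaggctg
TMPRSS15 (chr21:18403877-18403943, minus strand): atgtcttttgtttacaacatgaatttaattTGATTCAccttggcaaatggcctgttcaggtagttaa
These letters do not show that AP-1 was bound, and MMP1 and MMP3 were not in the promoter table.

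Developmental signalling genes differed in secreted ligands and antagonists. In the TGF-beta and BMP list 9 of 19 genes were lower and 2 higher, with a median of -0.98. NOG, the BMP antagonist noggin, was at 14.9 and 13.7 CPM in AM-38 and 90.6 and 90.2 CPM in A-172 (log2 difference -2.66, SE 0.08), and CHRD, chordin, another antagonist, at 1.05 ± 0.15 against 8.06 ± 0.385 CPM. The decoy receptor BAMBI (2.08 ± 0.458 and 18.7 ± 1.25 CPM) and the target ID2 (2.95 ± 0.234 and 9.09 ± 0.112 CPM) were lower as well, while the ligands INHBE (16.0 ± 1.87 and 0.353 ± 0.00811 CPM) and BMP6 (5.61 ± 0.799 and 0.656 ± 0.0863 CPM) were higher. TGFB1 and TGFBR2 were not called. In the Wnt list 2 of 12 were higher and 4 lower (16.7% and 33.3%), beside 26.9% and 25.4% of all tested genes. The ligand WNT5B was at 252 and 233 CPM against 6.1 and 5.65 CPM (5.37, SE 0.08), and the secreted antagonists DKK1 (352 ± 1.04 and 820.0 ± 3.26 CPM) and SFRP1 (0.192 ± 0.129 and 5.12 ± 0.51 CPM) and the receptor LGR4 (6.68 ± 0.357 and 38.7 ± 2.18 CPM) were lower. DKK3, at 1138 ± 8.3 and 715 ± 11.7 CPM, was above A-172 and was not called for its size (log2 difference 0.67). All 4 tested IGFBP genes were called, 3 of them lower, and the list that holds them also held IGF2BP1, the RNA-binding protein above. IGFBP2, IGFBP3 and IGFBP5, which bind insulin-like growth factors, were at 0.0989 ± 0.0732, 3.96 ± 0.134 and 1.2 ± 0.294 CPM in AM-38 and at 11.5 ± 0.0212, 33.8 ± 1.82 and 18.1 ± 3.16 CPM in A-172, and IGFBP6 was higher (216 ± 22.6 and 66.0 ± 2.62 CPM).

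Hypoxia genes were higher or not called. Of 15 tested, 7 were higher and 0 lower, with a median log2 difference of 0.97. STC1, stanniocalcin, was at 193 and 202 CPM in AM-38 and at 27.3 and 27.2 CPM in A-172 (log2 difference 2.86, SE 0.06), and NDRG1 at 117 and 114 CPM against 25.6 and 23.2 CPM (2.25, SE 0.07). VEGFA, named after its value was seen, was at 110.0 ± 3.55 against 50.8 ± 4.25 CPM (1.11). The glycolytic enzyme ALDOC was at 31.0 ± 1.34 against 12.9 ± 0.772 CPM. The collagen hydroxylases P4HA1 (46.9 ± 0.907 and 73.3 ± 1.67 CPM) and P4HA2 (46.7 ± 1.25 and 89.6 ± 1.6 CPM), also hypoxia genes, were below A-172. They were not called for their size (log2 difference -0.64 and -0.94), although their adjusted p-values of 1.5e-08 and 1.53e-11 (edgeR) passed. In the list of glycolysis and mitochondrial enzymes 2 of 9 were higher and 3 lower (22.2% and 33.3%), near the 26.9% and 25.4% of all tested genes. PCK2, the mitochondrial PEP carboxykinase, was at 63.4 ± 3.86 against 15.2 ± 0.848 CPM, and PFKL and fumarase, FH (78.1 ± 0.933 and 213 ± 1.98 CPM), were lower.

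PLIN2, the coat protein of lipid droplets, was at 25.0 and 22.9 CPM in AM-38 and at 0.154 and 0.298 CPM in A-172 (log2 difference 6.69, SE 0.23). In the list of lipid storage and lipoprotein genes 4 of 10 were higher (G0S2, PLIN2, CPT1C, PNPLA3) and 2 lower, MYLIP, which degrades the LDL receptor (0.144 ± 0.0623 and 6.16 ± 0.997 CPM), and the cholesterol exporter ABCG1 (1.89 ± 0.122 and 8.2 ± 0.58 CPM). ABCA1 and LRP1 were not called. Of 5 cholesterol and fatty acid synthesis genes, INSIG1 was lower (126 ± 0.0216 and 260.0 ± 3.55 CPM), a call that TMM and RLE scaling did not give, and 2 were lower without the first AM-38 or the second A-172 library. FASN and ELOVL6 were among the 4 others, which were not called.

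Stress and defence pathways gave smaller counts. Of 7 p53 targets 3 were higher and 0 lower, with PMAIP1, the pro-apoptotic NOXA gene, at 140.0 and 134 CPM in AM-38 and 31.1 and 31.9 CPM in A-172 (log2 difference 2.12, SE 0.07). SESN1 and FDXR were the others, and PLK2 and DDB2 were not called. Of 12 NRF2 targets 4 were lower and 0 higher. The quinone reductase NQO1 was at 82.0 and 82.1 CPM against 220.0 and 212 CPM (-1.4, SE 0.05), and the most abundant members, TXNRD1 (1538 ± 21.2 and 956 ± 18.9 CPM) and FTH1 (397 ± 14.9 and 767 ± 19.2 CPM), were not called. Of 13 interferon response genes 5 were lower and 0 higher, and with TMM or RLE scaling 1 was higher. HERC5 was at 1.79 and 1.15 CPM against 35.0 and 33.5 CPM (-4.52, SE 0.15), IFI6 at 3.35 and 2.51 CPM against 26.8 and 23.6 CPM (-3.09, SE 0.14) and ISG15, a ubiquitin-like modifier, at 4.44 ± 0.594 against 19.1 ± 1.01 CPM. IFITM3 and STAT2 were not called. B2M, the light chain of class I molecules, was at 492 ± 1.56 against 1046 ± 29.6 CPM (-1.09), while PSMB8 was not called. In the amino acid and ER stress list 2 of 12 were higher, TRIB3 (70.9 ± 4.73 and 26.6 ± 0.895 CPM) and CHAC1, and none lower. In that list 1 was higher without the first AM-38 library or the second A-172 library, and 1 was lower without the first A-172 library.

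**Figure D4:**
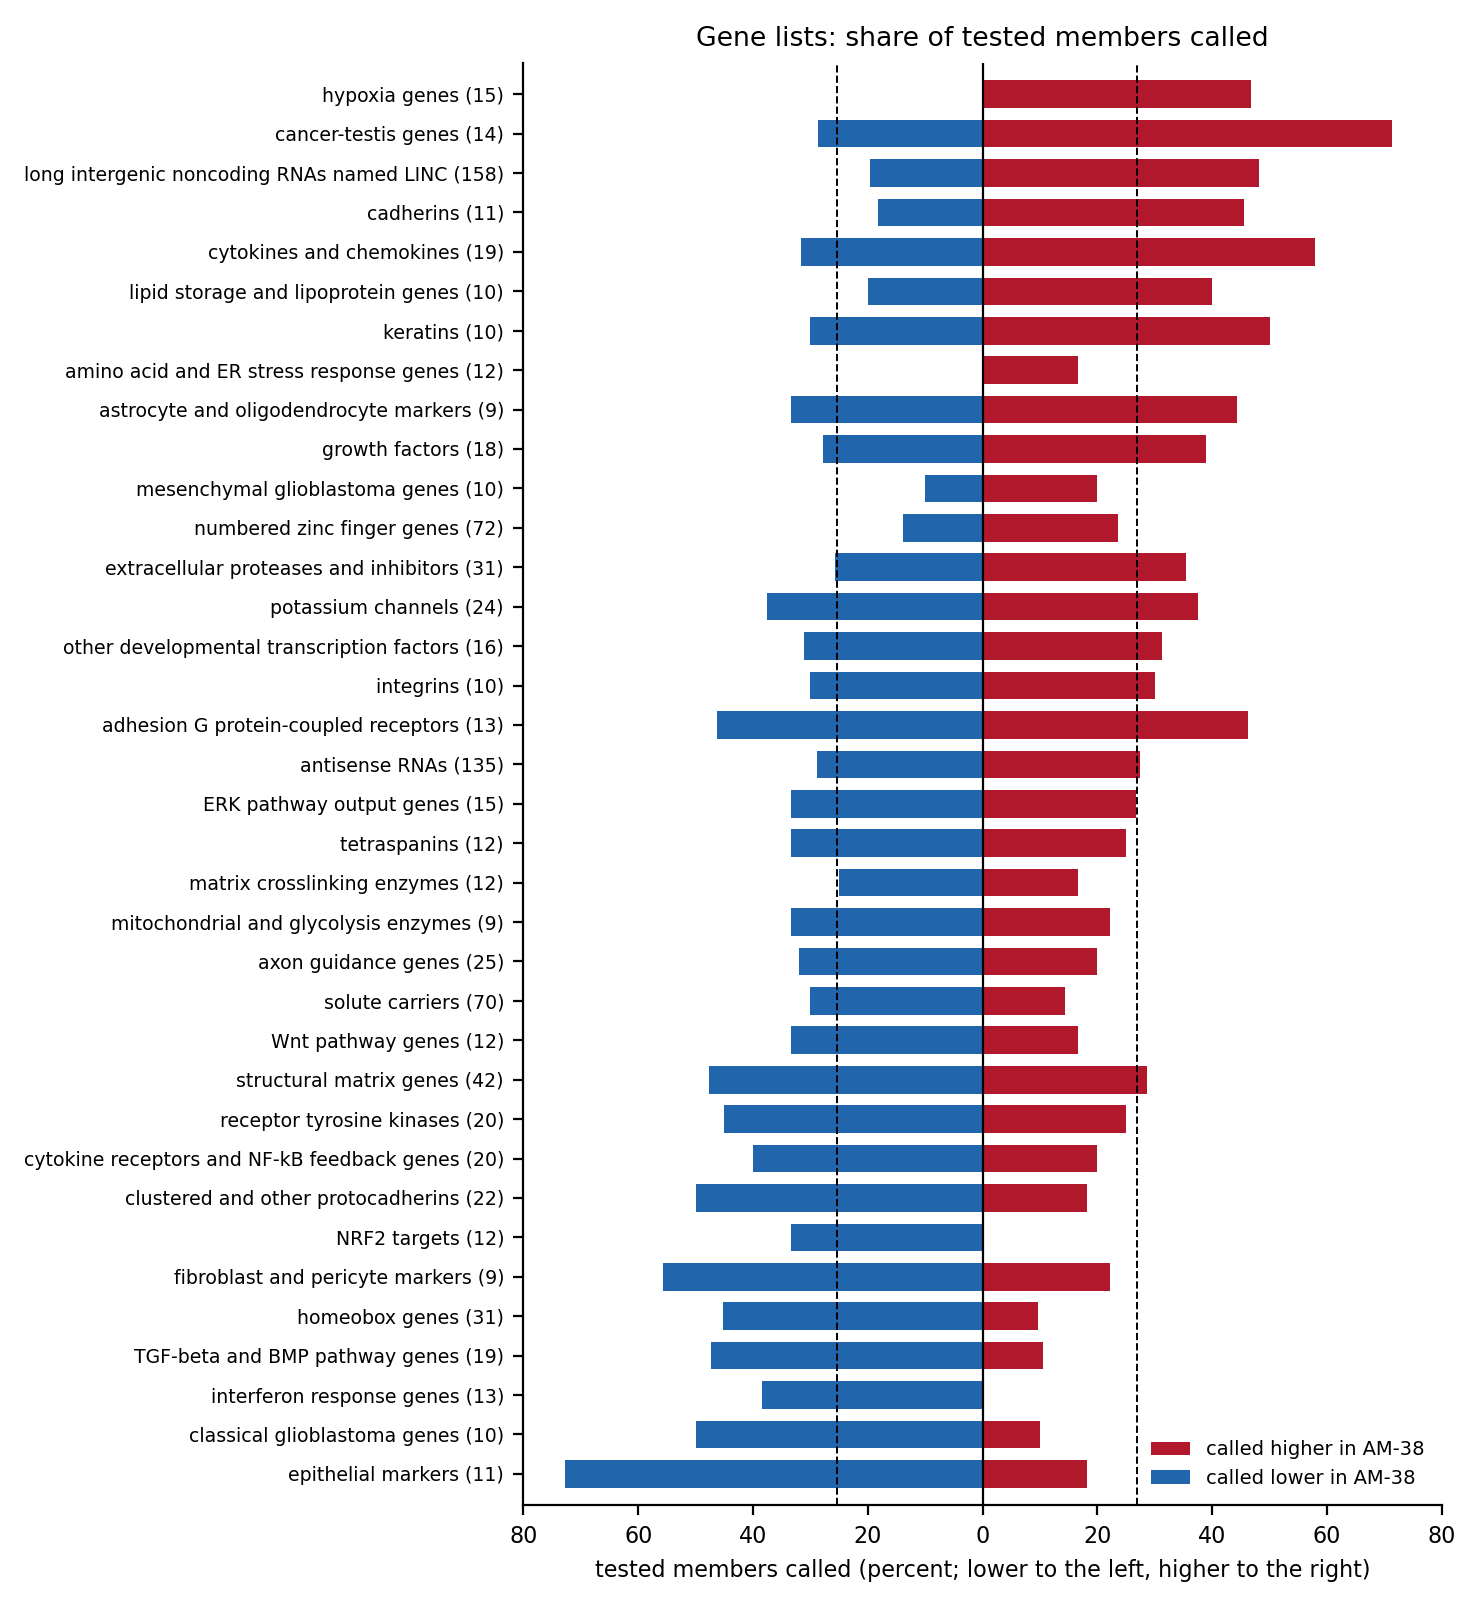
Share of tested members called higher (red, to the right) and lower (blue, to the left) in AM-38 for the gene lists with at least 9 tested members, with the number tested in brackets; the broken lines mark the shares of all 4399 tested genes, 26.9% higher and 25.4% lower. Cancer-testis genes (71.4%) and cytokines (57.9%) reach furthest right, and epithelial (72.7%) and fibroblast and pericyte genes (55.6%) furthest left.

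Homeobox genes were more often lower than higher in AM-38. Of 31 homeobox genes 14 were lower and 3 higher (45.2% and 9.68%), beside 25.4% lower and 26.9% higher over all tested genes. With TMM or RLE scaling 5 were higher. LHX9, a LIM homeobox gene, was at 0.566 and 0.351 CPM in AM-38 and at 67.3 and 64.3 CPM in A-172 (log2 difference -7.14, SE 0.16). HOXB8 was at 6.51 and 6.43 CPM against 87.9 and 90.2 CPM (-3.78, SE 0.09), HOXB5 at 5.17 ± 0.148 against 35.9 ± 1.15 CPM and PITX1 at 3.87 and 2.51 CPM against 41.1 and 38.8 CPM. Other genes of the HOXB cluster fell short of the fold threshold, with HOXB6 at 104 ± 6.47 and 90.1 ± 4.45 CPM and HOXB3 at 84.5 ± 1.07 and 127 ± 2.96 CPM (-0.59, SE 0.06), neither called. POU2F2, a POU factor of B cells, was at 105 and 97.7 CPM against 0.922 and 1.59 CPM (6.32, SE 0.13). Outside the homeobox family 5 of 16 developmental factors were higher and 5 lower (31.2% each), near the shares of all tested genes. TBX3, a T-box repressor, was at 276 and 274 CPM against 6.1 and 5.36 CPM (5.59, SE 0.08), GATA3 at 28.9 ± 2.12 against 1.99 ± 0.275 CPM and PAX8 at 25.1 ± 2.26 against 2.95 ± 0.0321 CPM. SOX4 (14.5 ± 0.129 and 60.4 ± 3.06 CPM), TBX2, NR2F2 and the Hippo pathway factor TEAD1 (125 ± 6.48 and 258 ± 15.4 CPM) were lower. TEAD1 was not called without the first AM-38 library (log2 difference -0.99), without the second A-172 library (-0.98) or with TMM or RLE scaling (-0.96).

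Lists that classify glioblastomas and neural cells differed in direction. Of 10 genes of the classical subtype 5 were lower and 1 higher, among them NOTCH3 and FGFR3, the hedgehog receptor SMO (18.5 ± 1.76 and 57.3 ± 2.99 CPM) and nestin, NES (133 and 135 CPM in AM-38 and 333 and 322 CPM in A-172). Of 7 proneural genes 4 were lower (SOX4, NKX2-2, DLL1, BCAN) and NCAM1 was higher (110.0 ± 6.43 and 32.9 ± 0.186 CPM). Of 10 mesenchymal genes 2 were higher (TGFBI, CASP1) and IL1R1 was lower. These counts are small, and the shares for all tested genes were 26.9% and 25.4%. Of 9 astrocyte and oligodendrocyte genes 4 were higher, led by ALDH1L1, a folate enzyme of astrocytes (20.0 ± 1.41 and 0.15 ± 0.139 CPM), and 3 were lower, led by clusterin, CLU (54.0 ± 0.629 and 525 ± 2.58 CPM), and the myelin enzyme CNP (82.4 ± 2.22 and 237 ± 12.2 CPM). Of 4 neural progenitor genes PROM1 and PAX6 were higher and NES and HES1 lower. Of 7 neuron genes UCHL1 and the neurofilament gene NEFL (38.6 ± 0.52 and 403 ± 2.33 CPM) were lower and 1 was higher, while SYT1 and MAP2 were not called. In the Schwann cell and melanocyte list 3 of 6 were higher, led by the neurotrophin receptor NGFR (81.0 ± 1.25 and 5.1 ± 0.545 CPM), and 2 lower, led by PMP22 (31.9 ± 2.14 and 139 ± 3.08 CPM).

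Genes of fibroblasts and pericytes were lower in 5 of 9 cases and higher in 2. MCAM was at 1.32 and 1.25 CPM in AM-38 and at 59.5 and 55.1 CPM in A-172 (log2 difference -5.47, SE 0.13), RGS5, a pericyte gene, at 2.15 ± 0.646 against 41.3 ± 2.61 CPM and THY1 at 101 ± 2.82 against 273 ± 0.718 CPM. Smooth muscle actin, ACTA2, was at 60.3 ± 1.17 against 13.2 ± 1.98 CPM (2.19, SE 0.1), while TAGLN and PRRX1 were not called. The 4 defining fibroblast markers that were listed (COL1A2, DCN, LUM, THY1) summed to 108 and 104 CPM in AM-38 and 401 and 395 CPM in A-172, and their part in the matrix differences was not tested. Of 4 endothelial genes CDH5 was higher and TEK was among 2 lower (1 without the first AM-38 library), and of 4 immune genes LYZ, lysozyme, was higher (5.57 ± 0.0066 CPM with 2 reads in A-172) and 2 were lower.

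Cancer-testis genes, which are normally silent outside the germline, were all called, 10 of 14 higher and 4 lower, with a median of 2.69. FAM9A was at 84.7 and 96.7 CPM in AM-38, MAGEA11 at 54.0 and 51.5 CPM and PASD1 at 52.9 and 52.4 CPM, and each had 0 reads in A-172, which makes them at least 1199.8-fold, 698-fold and 696-fold higher. PAGE5 was at 67.5 ± 2.54 against 0.226 ± 0.0304 CPM. The reverse held for PRAME, with 3 reads in AM-38 against 77.6 and 70.2 CPM in A-172, a ratio of 981 (95% counting interval 346 to 4909.8), and for MAGEA3 and MAGEA6. MAGEA and PAGE genes have near-identical relatives, so their values are uncertain. In all, 29 genes had 0 reads in A-172 with at least 10 reads in each AM-38 library, and 11 genes had 0 reads in AM-38 with at least 10 in each A-172 library. The first set also held the inward rectifier KCNJ2 (35.6 ± 0.448 CPM), the vesicular nucleotide transporter SLC17A9 (31.0 ± 3.5 CPM) and the adhesion receptor ADGRL4 (53.3 ± 1.37 CPM). Levels under the floor cannot be seen at this depth, and with at most 1 read allowed in the 2 libraries together the numbers were 72 and 23.

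Long intergenic RNAs were more often higher than lower in AM-38. Of 333 tested genes annotated as long intergenic RNAs, 152 were higher (45.6%) and 73 lower (21.9%), with a median log2 difference of 0.76. Protein-coding genes were 827 higher (23.9%) and 919 lower (26.5%) of 3467, with a median of -0.15, and antisense RNAs 60 higher and 59 lower of 223. Among genes with a LINC name 76 of 158 were higher and 31 lower. LINC01029 was at 109 and 119 CPM in AM-38 with 3 reads in A-172, a ratio of 1536 (95% counting interval 516 to 7319.7), LINC02780 was at 20.7 and 21.6 CPM with 0 reads, at least 280-fold higher, and LINC00520 was at 31.3 ± 1.26 CPM with 4 reads. Lower ones included LINC03014 (0.683 ± 0.0991 and 25.9 ± 1.15 CPM). Of the antisense names, ADGRD1-AS1 was at 58.6 and 59.7 CPM with 0 reads in A-172 (at least 783-fold higher) and IGFL2-AS1 at 0.33 and 0.502 CPM against 46.9 and 47.1 CPM. Libraries kept the strand, but whether the counting used it is not given, so antisense and overlapping genes are uncertain.

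The shares of called genes varied between chromosomes. On chromosome 7, 40 of 329 tested genes were higher (12.2%) and 91 lower (27.7%). On chromosome X, 64 of 158 were higher (40.5%) and 30 lower (19.0%). Chromosome 10 had 35.6% higher and chromosome 12 32.5%, chromosome 6 had 17.9% higher, and chromosomes 18 and 17 had 41.1% and 34.0% lower. Gene copy number was not measured in these files, and its part in the spread was not tested.

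**Figure D5:**
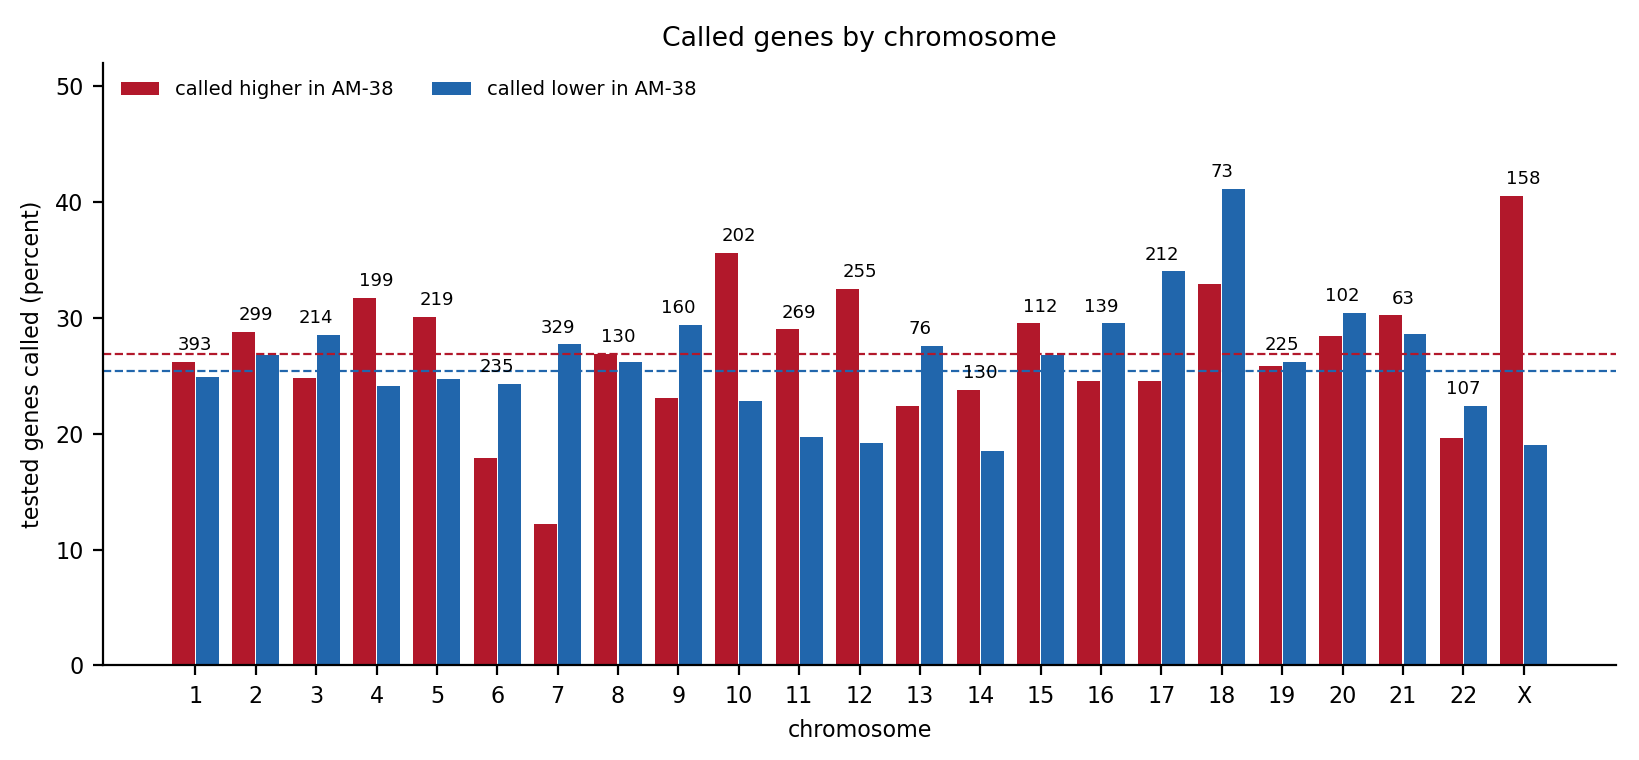
Share of tested genes called higher (red) and lower (blue) in AM-38 on each chromosome, in percent, with broken lines at the shares of all tested genes (26.9% and 25.4%); the number of tested genes stands above each pair of bars. Chromosome 7 has the smallest share of higher genes (12.2%) and chromosome X the highest (40.5%), and chromosome 18 has the highest share of lower genes (41.1%).

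Some neighbouring genes shared a call. Runs of at least 5 neighbouring tested genes with the same call numbered 36, of which 22 were higher and 14 lower, and they held 215 of 4308 placed genes. Apart from the chemokine cluster, several runs were families of copied genes, whose reads can be shared; the members given here were chosen after their values were seen. The longest run had 10 genes on chromosome 17 (9822206 to 10623886), from GLP2R and GAS7 to the skeletal muscle myosins MYH13, MYH8, MYH4, MYH1 and MYH2, all higher. MYH13 was at 16.5 and 14.3 CPM in AM-38 and 0.205 and 0.198 CPM in A-172 (log2 difference 6.21, SE 0.26), and MYH8 was at 9.48 and 9.84 CPM with 2 reads in A-172. On chromosome 11 the globin genes HBG2 and HBE1 and the odorant receptor genes OR51B4, OR51B5 and OR51B2 were higher, with HBE1 at 30.7 and 29.1 CPM against 1.23 and 1.54 CPM (4.43, SE 0.15) and OR51B5 at 117 and 119 CPM against 5.17 and 5.9 CPM (4.41, SE 0.09). HBE1, HBG2 and OR51B5 overlap one another in the annotation, so these may not be separate measurements.

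A pregnancy-specific glycoprotein cluster on chromosome 19 changed direction within itself. CEACAM1, PSG1, PSG6, PSG11-AS1, PSG2 and PSG5 were 6 neighbours higher in AM-38 (42507304 to 43186536), with PSG5 at 160.0 and 159 CPM against 3.12 and 2.58 CPM (log2 difference 5.81, SE 0.1) and PSG1 at 85.2 and 80.9 CPM against 0.461 and 0.595 CPM (7.28, SE 0.15). PSG4, next to PSG5, was lower, at 8.96 and 9.34 CPM against 79.9 and 81.8 CPM (-3.14, SE 0.09), and PSG9 was not called. PSG genes are near copies of one another and share reads readily. On chromosome X, VCX, VCX3B, DRAXINP1, FAM9A, FAM9B and GPR143 were higher over 1944 kb. Runs that were lower included BCAN, its antisense RNAs and NES on chromosome 1 and MKX to BAMBI on chromosome 10. MKX, the mohawk homeobox gene of tendon, was at 7.59 and 8.38 CPM in AM-38 and 481 and 537 CPM in A-172 (-5.99, SE 0.08).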

How the data were processed

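Poly(A) RNA of 2 libraries each of AM-38 and A-172 was sequenced with strand kept, per the labels' protocols. The submitters' processing notes name HISAT2 2.2.1, StringTie 1.3.3, HTSeq 0.6.0, FastQC 0.10.1 and cutadapt 1.9.1, with hg38/GRCh38 as the build, and do not say what each did. The annotation and the strand setting of the counting are not given in the sources used here. The authors deposited read counts that were not normalized, FPKM values and gene lengths for 5383 genes and 3 lines, and every value column was matched to a library.

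Library totals were worked out as reads divided by length and FPKM, from genes at 20 FPKM and 200 reads or above. These gave back the deposited FPKM within 0.01 and served as library sizes with no further scaling. The edgeR 4.0.16 quasi-likelihood test (two-sided, R 4.3.3) was run on the counts of the 4 libraries over 4399 genes. The SE was worked back from the F statistic. Where a line had 0 reads, the fold is a bound against 3 reads over its 2 libraries. With 1 to 3 reads, the ratio has an exact 95% binomial counting interval. Symbols were found for 5382 genes and GENCODE 29 coordinates for 5214. RefSeq promoters matched 3450 listed genes.

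The members and the 48 gene lists were chosen with earlier results of these data known, so lists are given as counts and medians without a test. Named genes are the called genes with the 15 largest ratios at 10 CPM or more and the 10 largest level differences in each direction, with up to 4 called members per direction at 5 CPM or more and up to 2 members not called per list, and the cell type markers. Alternatives used TMM and RLE factors, DESeq2 1.42.0, limma 3.58.1, other filters, SNU-466 in the fit, a replicate block and each library left out. The other lines of the series were not analysed here. Some genes that the naming rule gives are not reported here.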

Additional observations from a re-analysis of the deposited data

How the results depend on the processing

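The 1182 higher and 1119 lower genes changed little between tests: 1109 and 1059 with DESeq2, 1170 and 1105 with limma on log2 CPM, 1036 and 910 with the edgeR test against a 2-fold threshold, 1180 and 1119 with 6 libraries in the fit, and 1211 and 1179 without the low-count filter. TMM factors gave 1249 and 1048 and RLE factors 1253 and 1043, with a median log2 difference of 0.02 and 0.03 in place of -0.06. A minimum of 100 reads left 2988 genes, with 703 higher and 762 lower, because fewer genes were tested. Leaving out each library gave 1168 to 1206 higher and 1098 to 1149 lower, where the lone library of a line is assumed to vary like the other line. In each of these fits 0 genes were called opposite to their direction in the report. With the replicate number as a block, 1183 were higher and 1120 lower. Deviations of same-numbered libraries correlated at 0.036, and nothing in the labels says that the numbers pair the samples.

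Genes at 0 reads in A-172 numbered 29 and those in AM-38 11. With at least 100 reads in the other line they were 22 and 2, and with at most 1 read allowed 72 and 23.

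For 321 of the tested genes named in the text, 4150 values were read under these alternatives. Of these, 4118 kept their direction and side of the thresholds, and 22 of 8 genes missed a threshold. Another 5 of 3 genes newly passed, and 5 of 2 genes changed sign. Both of the latter were not called. GLUL was at a log2 difference of 0.07 with TMM, 0.08 with RLE and between -0.05 and 0.03 with a library left out, and MAP2 was between -0.34 and 0.09 with a library left out. Without the second A-172 library TNFSF15 (0.91), TEAD1 (-0.98) and CHAC1 (0.99) fell short of the fold threshold, and without the first AM-38 library VEGFC (-0.97), TEAD1 (-0.99) and, narrowly, CHAC1. Without the second AM-38 library PSG9 was called lower (-1.13). Of 1248 list counts 53 moved by over 1.5 times, 29 of them under the minimum of 100 reads, where the tested members were fewer. Causes of the other shifts were not tested. Depth limits genes below about 10 reads, which were not tested, and 2 libraries a line limit the estimate of the spread, which the test pools across genes.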

Other observations

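Genes of membrane transport also differed between the lines. Of 70 solute carrier genes 21 were lower and 10 higher in AM-38, beside 25.4% lower and 26.9% higher over all tested genes. SLC38A5, a glutamine and glycine transporter, was at 79.2 and 73.4 CPM in AM-38 and at 0.154 and 0.0992 CPM in A-172 (log2 difference 9.17, SE 0.19), and SLC6A15, a carrier of branched-chain amino acids, was at 31.9 and 34.7 CPM with 1 read in A-172. The amino acid carriers SLC3A2 (400.0 ± 14.0 and 225 ± 4.18 CPM) and SLC7A5 (183 ± 11.6 and 325 ± 3.05 CPM), which pair as 1 transporter, were not called. SLC6A2, the noradrenaline carrier, had 3 reads in AM-38 against 15.7 ± 1.29 CPM, and the glutamate carrier SLC1A1 was at 0.124 ± 0.109 against 6.69 ± 0.915 CPM. Potassium channel genes were 9 higher and 9 lower of 24 (37.5% each). KCNIP4 (12.2 ± 0.454 and 0.125 ± 0.104 CPM) and KCNK13 (9.71 ± 0.462 and 0.178 ± 0.182 CPM) were higher, KCNH2 had 3 reads in AM-38 against 6.5 ± 0.492 CPM, and KCNQ5 was not called. Of 5 drug transport and resistance genes 2 were lower, among them ABCC4 (47.2 ± 1.48 and 103 ± 2.7 CPM), and ABCC3 and DPYD were not called.

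Adhesion G protein-coupled receptors were 6 higher and 6 lower of 13 (46.2% each), beside 26.9% higher and 25.4% lower over all tested genes. ADGRF1, which lies near ADGRF5 on chromosome 6, was at 24.9 and 25.9 CPM in AM-38 with 0 reads in A-172, at least 336-fold higher, while ADGRE5 (58.6 ± 1.46 and 199 ± 8.49 CPM) and ADGRA2 (14.1 ± 1.37 and 45.4 ± 0.438 CPM) were lower. Tetraspanins were 3 higher and 4 lower of 12 (25.0% and 33.3%), near the shares of all tested genes, with TSPAN5 at 147 ± 0.737 against 36.2 ± 3.22 CPM and TSPAN3 at 78.3 ± 1.1 against 183 ± 3.53 CPM. Of 72 numbered zinc finger genes 17 were higher and 10 lower (23.6% and 13.9%, against 26.9% and 25.4% of all tested genes). ZNF702P was at 22.7 ± 1.56 against 0.202 ± 0.0759 CPM, and ZNF532 at 5.32 ± 0.28 against 59.8 ± 2.05 CPM (log2 difference -3.49, SE 0.10). Many zinc finger genes resemble one another, so reads can be shared.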
